A study of Mus musculus with 6 samples.

Results

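The genes described are those that encode the Sm and LSm proteins, the U1 and U2 particle proteins that carry an Snrp name, and the SF3a and SF3b proteins. They were taken as every protein-coding gene of the deposited count table whose symbol begins with Lsm and a digit, with Snrp and a letter from a to g or n, or with Sf3a or Sf3b and a digit. This gave 34 of the 54532 genes in the table: 12 bore an Snrp name, 13 an Lsm name and 9 an Sf3 name. Of these, 33 passed the filter on low counts and were among the 13900 genes tested, and Snrpn did not pass. The label of Sm and LSm proteins covers only part of them, since the SF3a and SF3b proteins have no place in an Sm or LSm ring.

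Naive CD4+ T cells had been isolated from C57BL/6 mouse spleens. They spent 72 h in culture with CD3 and CD28 beads, IL-2, and antibodies that block IFNγ and IL-4, so both groups were activated and both had these cytokines blocked. In 3 libraries the cells also received neutrophil extracellular traps (NETs), webs of DNA, histones and granule proteins released by neutrophils, and in the other 3 they received vehicle. The source and dose of the NETs, the nature of the vehicle, and the age and number of the mice are not stated. Nor is it stated whether replicates came from different animals or cultures, and a p-value then covers only the spread between these libraries, which may be technical. Library totals ranged from 15657622 to 18655997 counts. Cd4 stood at 847 to 964 CPM (the usual counts-per-library scale, with TMM factors applied) and Cd8a at 0.818 to 2.42 CPM, as the label of CD4+ cells states. In bulk RNA, fewer cells with a transcript and less of it per cell cannot be told apart.

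Introns are removed from pre-mRNA by the spliceosome, which is assembled on each intron from small nuclear ribonucleoproteins (snRNPs), each a short U-rich RNA with its own proteins. Sm proteins close as a ring around the U1, U2, U4 and U5 RNAs, the related LSm proteins close around U6, and SF3a and SF3b belong to the U2 particle that recognises the branch point. A second LSm ring acts in the cytoplasm in the decay of mRNAs, and a variant ring on the U7 RNA serves the processing of histone pre-mRNAs. A T cell that leaves the naive state grows, divides and transcribes much more RNA, and makes more of its splicing machinery.

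With NETs, nearly all estimates for these transcripts lay above 0, but none of the genes passed the threshold over all genes tested by edgeR. The medians by role were highest for the Sm ring (0.39) and the LSm ring (0.28), and the differences between roles were not tested. The log2 fold change, NETs over vehicle, was above 0 for 31 of 33 genes, against 50.2% of all genes tested, with a median of 0.17 against 0.00 for all genes tested. At an unadjusted p under 0.05 by edgeR's quasi-likelihood test, 10 of 33 (30.3%) were higher, against 6.72% of all genes tested, and 1 (Sf3b1) was lower, against 6.06%. The 3 NETs libraries lay wholly above the 3 vehicle libraries for 14 of 33 genes (42.4%), against 8.72% of all genes tested, and wholly below for 1, against 7.86%. Of the 11845 protein-coding genes tested, 52.9% lay above 0, 7.67% were higher at an unadjusted p under 0.05 and 9.58% were wholly above. The median SE was 0.10 for the 33 genes and 0.15 for all genes tested. With a smaller SE, a smaller difference reaches an unadjusted p under 0.05. After Benjamini-Hochberg adjustment over all genes the smallest adjusted p among the 33 was 0.223. By edgeR 0 of 13900 genes passed an adjusted p of 0.05, with 1776 at an unadjusted p under 0.05. DESeq2 called 130 genes (0.935%), 6 of them here, all higher: Lsm4, Lsm6, Snrpb, Snrpc, Snrpd2 and Snrpf. Limma-voom called 1 gene and none of these.

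**Figure D1:**
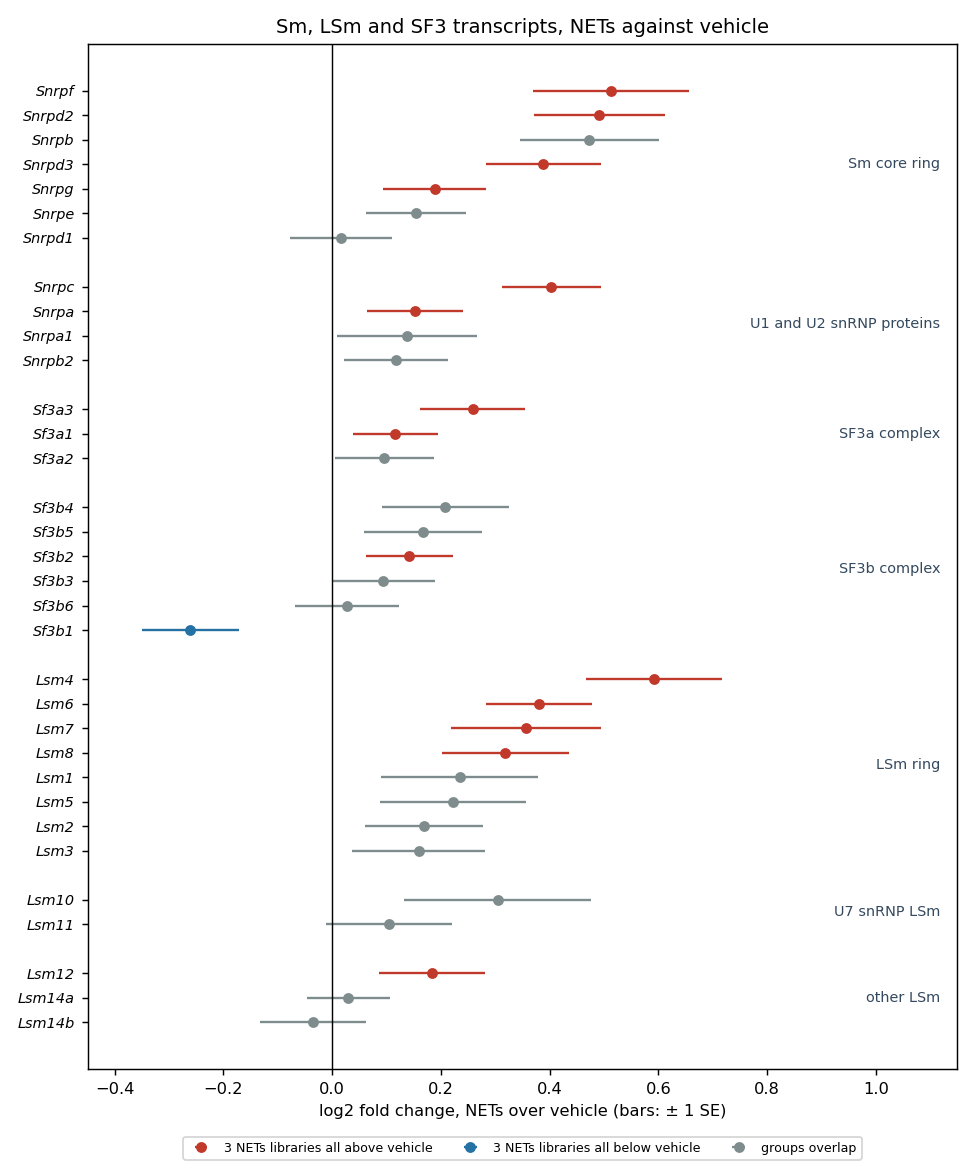
The log2 fold change (NETs over vehicle, horizontal axis) of the 33 tested genes, in blocks by role; points are edgeR estimates, bars are ± 1 SE, and colour shows whether the groups overlap. In the plot, 31 genes lie to the right of 0, and Sf3b1 lies farthest to the left at −0.26.

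The transcripts differed widely in level when expressed per length. On the deposited FPKM scale (reads per kilobase, scaled to library size), the vehicle mean ran from 412 ± 31.1 for Sf3b1 (SD, n = 3) to 7.70 ± 0.665 for Lsm11, with Snrpn far below at 0.410 ± 0.30. Behind Sf3b1 came Snrpe (194 ± 14.8), Lsm4 (176 ± 6.56), Snrpb (166 ± 30.7) and Lsm14a (156 ± 4.02), which follow each other within the spread of Snrpb. Members of a single ring, which are present in equal numbers in the protein complex, were not level as transcripts: with vehicle the Sm ring ran from 194 FPKM for Snrpe to 40.3 ± 5.74 for Snrpd2. Among the subunits that the nuclear and cytoplasmic LSm rings share, the range was from 176 FPKM for Lsm4 to 26.0 ± 1.69 for Lsm6. Lsm1, which is in the cytoplasmic ring only, stood at 18.7 ± 2.82. The order depends on the length that the authors divided by, which was 0.212 times the deposited gene length for Sf3b1 and equal to it for Sf3b2, Sf3b5, Snrpd1 and Snrpf. For Sf3b1 the length implied by the FPKM was 2410 bases, less than its coding sequence of 3915 bases. It was also less than the coding sequence for Sf3b3, Sf3b4 and the SF3a genes. The FPKM of these genes, and the first place of Sf3b1, may therefore stand too high. Divided by the deposited gene length, Sf3b2 came first and Sf3b1 in place 4, and Sf3b5, which is listed in place 32 by FPKM, came in place 23.

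**Figure D2:**
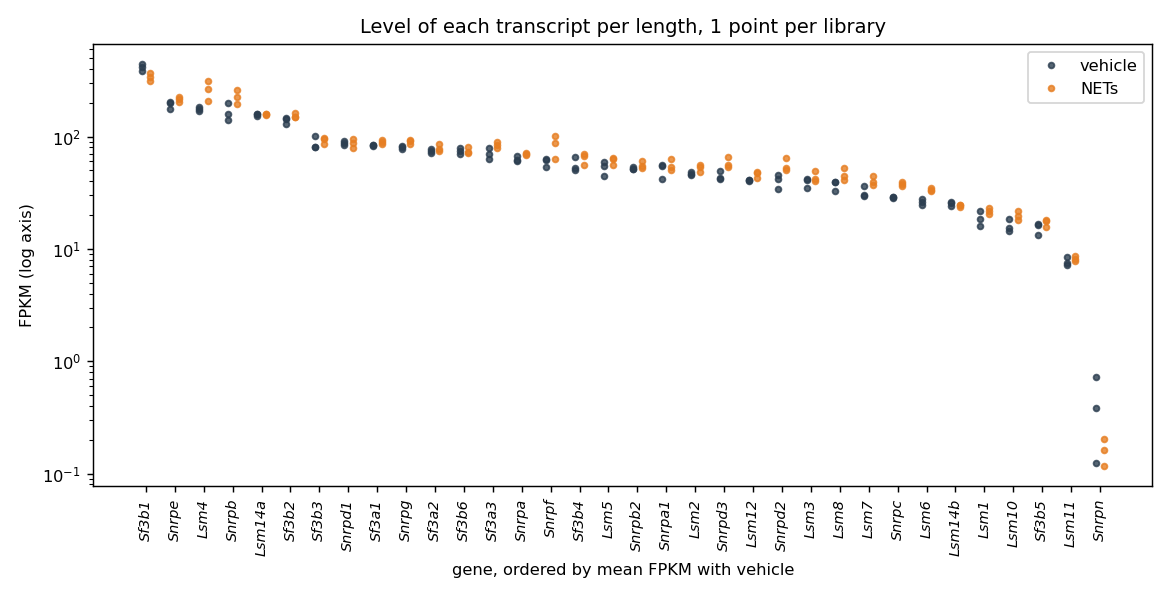
FPKM of the 34 genes in each library (log axis, 1 point per library, vehicle dark and NETs orange), ordered by the vehicle mean. Sf3b1 is highest, Lsm11 is the lowest of the 33 tested genes, and Snrpn lies apart under 1 FPKM in each of the 6 libraries.

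Among the Sm ring genes, 4 of 7 tested were higher with NETs at an unadjusted p under 0.05, against 6.72% of all genes tested. The ring had the highest median of any role, 0.39. Snrpf and Snrpd2, whose products SmF and SmD2 are neighbours in the ring, showed the largest differences. Snrpd2 (ENSMUSG00000040824; chromosome 7, 19149722 to 19153542) stood at 54.8, 45.5 and 59.5 CPM with vehicle (replicates 1 to 3, in this order throughout) and at 86.2, 70.1 and 68.3 CPM with NETs. The NETs libraries all lay above the vehicle libraries (log2 fold change 0.49, SE 0.12; edgeR adjusted p = 0.223). Snrpf (ENSMUSG00000020018; chromosome 10, 93583029 to 93589706) stood at 53.8, 46.6 and 52.6 CPM with vehicle and at 87.1, 54.5 and 76.9 CPM with NETs. NETs replicate 2 was barely above the highest vehicle library, and the log2 fold change was 0.51 (SE 0.14; edgeR adjusted p = 0.223). The annotation places exons of Ccdc38 on the opposite strand across 65.9% of the Snrpf exon bases; Ccdc38 had 209 reads over the 6 libraries and Snrpf 6393.

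Snrpb, which encodes the SmB and SmB′ proteins (ENSMUSG00000027404; chromosome 2, 130171414 to 130179403), was the most abundant ring transcript by reads. It stood at 173, 156 and 219 CPM with vehicle and 290, 217 and 254 CPM with NETs. The groups overlapped, since vehicle replicate 3 exceeded NETs replicate 2, and the log2 fold change was 0.47 (SE 0.13; edgeR adjusted p = 0.223). Without vehicle replicate 3 it was 0.63 and passed the threshold (adjusted p = 0.0217), as did Snrpd2 and Snrpd3. Snrpd3, the partner of SmB in ring assembly (ENSMUSG00000020180; chromosome 10, 75517551 to 75537381), stood at 57.1, 60.1 and 68.2 CPM with vehicle and 90.6, 74.0 and 78.0 CPM with NETs. Its groups did not overlap, and its log2 fold change was 0.39 (SE 0.11; edgeR adjusted p = 0.223). Exons of Gucd1 on the opposite strand, with 7398 reads in all, cover 6.74% of its exon bases.

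The other ring genes differed less. Snrpg, for SmG, stood at 50.1, 49.4 and 51.9 CPM with vehicle and 58.4, 59.0 and 55.2 CPM with NETs, a small difference with little spread (log2 fold change 0.19, SE 0.09; edgeR adjusted p = 0.423). Snrpe, for SmE, was at 0.15 (SE 0.09), with overlapping groups. Its processed pseudogene Snrpert held 51 to 113 reads a library, 451 in all beside 9990 for Snrpe, and reads of the 2 may have been split between them. Snrpd1, which encodes SmD1, the ring partner of SmD2, stood at 72.0, 70.7 and 75.5 CPM with vehicle and 73.0, 80.2 and 67.5 CPM with NETs, the latter on both sides of the former. Its log2 fold change of 0.02 had an interval (1.96 SE either side) of −0.17 to 0.20. Whether Snrpd1 differs in response from Snrpd2 was not tested.

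Snrpn encodes SmN, which takes the place of SmB in neurons, from an imprinted locus (ENSMUSG00000102252; chromosome 7, 59982495 to 60140219). It was close to silent here, with 27, 12 and 4 reads with vehicle and 4, 6 and 7 with NETs, too few to be tested. The log2 ratio of Snrpn to Snrpb in FPKM was −7.78, −8.51 and −10.65 with vehicle and −11.13, −10.24 and −10.12 with NETs (two-sided exact permutation p = 0.3, adjusted over 3 ratios 0.9, where 3 against 3 cannot go below 0.1). Vehicle replicates 1 and 2 were the high values, and vehicle replicate 3 lay among the NETs libraries. The coding sequences of the 2 genes were 80.5% identical over 696 aligned bases, with a longest identical run of 32 bases. Whether reads were shared between them was not tested.

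Among the 4 U1 and U2 particle proteins, Snrpc alone was higher at an unadjusted p under 0.05, against 6.72% of all genes tested. The estimates of the other 3 lay between 0.12 and 0.15. Snrpc encodes U1-C, a zinc finger protein that helps U1 hold the 5′ splice site (ENSMUSG00000024217; chromosome 17, 27838150 to 27851968). Its values were 56.1, 57.1 and 54.7 CPM with vehicle and 77.5, 72.7 and 71.8 CPM with NETs. The libraries within each group lay close together and the groups were well apart (log2 fold change 0.40, SE 0.09; edgeR adjusted p = 0.223). Snrpa, for the U1 protein U1-A that binds a stem loop of the U1 RNA, stood at 72.7, 67.0 and 67.8 CPM with vehicle and 79.2, 76.1 and 75.3 CPM with NETs. The groups did not overlap here either, but the log2 fold change was 0.15 (SE 0.09; edgeR adjusted p = 0.488). BC024978 covers 11.0% of its exon bases from the opposite strand, with 571 reads in all beside 7548 for Snrpa.

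The U2 proteins Snrpa1 (U2-A′) and Snrpb2 (U2-B″) were at log2 fold changes of 0.14 (SE 0.13) and 0.12 (SE 0.10), with overlapping groups. Snrpb2 and Snrpa are paralogs whose coding sequences were 73.1% identical over 673 aligned bases. The log2 ratio of Snrpb2 to Snrpa in FPKM averaged −0.28 ± 0.10 with vehicle and −0.32 ± 0.14 with NETs (SD, n = 3 each; two-sided exact permutation p = 0.7, adjusted over 3 ratios 0.9). The difference between the groups was smaller than the spread between replicates.

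The SF3a and SF3b genes, whose proteins clamp the U2 RNA onto the branch point, had medians of 0.12 in both complexes, with Sf3b1 opposite in sign to the rest. All 3 SF3a genes lay above 0. Sf3a3 (ENSMUSG00000028902; chromosome 4, 124714776 to 124732460) stood at 79.8, 74.3 and 91.6 CPM with vehicle and 98.1, 103 and 92.7 CPM with NETs. Vehicle replicate 3 came within reach of NETs replicate 3, and the log2 fold change was 0.26 (SE 0.10; edgeR adjusted p = 0.292). Sf3a1 was at 0.12 (SE 0.08) without overlap of the groups, and Sf3a2 at 0.10 (SE 0.09) with overlap. Exons of Plekhj1 on the opposite strand cover 16.1% of the Sf3a2 exon bases and held 5958 reads in all, so part of the Sf3a2 reads could belong to it.

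Sf3b1 encodes the large repeat protein that holds the branch point adenosine (ENSMUSG00000025982; chromosome 1, 54985169 to 55027481), and it took more reads than any other gene described here. Its values were 988, 1074 and 909 CPM with vehicle and 757, 887 and 835 CPM with NETs. All 3 NETs libraries were below the vehicle libraries (log2 fold change −0.26, SE 0.09; edgeR adjusted p = 0.267). Without NETs replicate 1 the difference was −0.20 and the unadjusted p 0.0735. Its partners did not share the sign. Sf3b4 was at 0.21 (SE 0.12), Sf3b5 at 0.17 (SE 0.11) and Sf3b2 at 0.14 (SE 0.08). Sf3b3 was at 0.09 (SE 0.10) and Sf3b6 at 0.03 (SE 0.10). None of these 5 had an unadjusted p under 0.05, and only Sf3b2 had groups that did not overlap. Phf5a, a further SF3b protein that the name rule leaves out, was at 0.28 (SE 0.12). Its groups overlapped, and its unadjusted p by edgeR was 0.0294. The 6 genes with an Sf3b name, of which Sf3b1 alone was lower, together took 0.188% to 0.189% of all counts with vehicle. With NETs they took 0.174% to 0.186%. The Sm ring genes took 0.0522% to 0.0626% with vehicle and 0.0663% to 0.0779% with NETs, ranges that did not overlap.

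**Figure D3:**
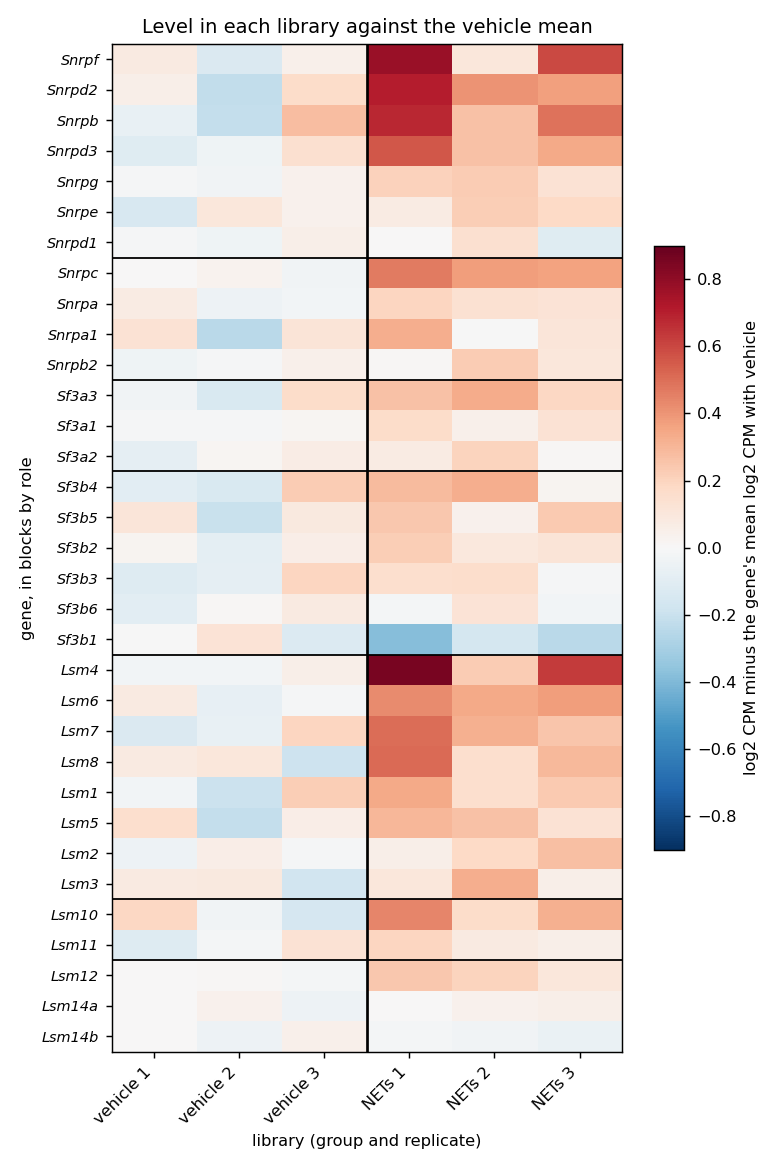
Level of the 33 tested genes in each library, as log2 CPM minus the gene's mean log2 CPM with vehicle (colour scale; red higher, blue lower), in blocks by role. NETs replicate 1 holds the darkest red, in Lsm4, Snrpf, Snrpd2 and Snrpb, and Sf3b1 is blue in all 3 NETs libraries.

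All 8 LSm ring genes lay above 0, with a median of 0.28. Of them 4 were higher at an unadjusted p under 0.05, against 6.72% of all genes tested. Lsm4, a subunit common to the nuclear and cytoplasmic rings (ENSMUSG00000031848; chromosome 8, 70673248 to 70678752), had the smallest p of all the genes described here. It stood at 98.9, 98.9 and 105 CPM with vehicle and at 182, 118 and 156 CPM with NETs. The vehicle libraries were nearly level and the NETs libraries were spread widely above them, with a 1.51-fold difference (log2 fold change 0.59, SE 0.13; edgeR adjusted p = 0.223). The adjusted p was 0.0344 without NETs replicate 2 (log2 fold change 0.75) and 0.0374 without vehicle replicate 3 (0.62), and the log2 fold change was 0.44 without NETs replicate 1 (adjusted p = 0.812).

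Lsm6, a common subunit beside Lsm5 (ENSMUSG00000031683; chromosome 8, 78804865 to 78821140), stood at 47.3, 42.5 and 44.5 CPM with vehicle and 60.2, 56.7 and 58.1 CPM with NETs. Both groups were tight, and the log2 fold change was 0.38 (SE 0.10; edgeR adjusted p = 0.223). Lsm7, for another common subunit, stood at 19.1, 20.04 and 23.9 CPM with vehicle and 29.7, 26.2 and 24.9 CPM with NETs (log2 fold change 0.36, SE 0.14; edgeR adjusted p = 0.305). Its groups did not overlap, but NETs replicate 3 and vehicle replicate 3 lay within about 1 CPM of each other. The common subunits Lsm5, Lsm2 and Lsm3 were at 0.22 (SE 0.13), 0.17 (SE 0.11) and 0.16 (SE 0.12), all with overlapping groups.

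The 2 subunits that set where the ring works gave no detectable difference between them. Lsm8 replaces Lsm1 in the nuclear ring on the U6 RNA, and Lsm1 marks the cytoplasmic ring that promotes decapping of mRNAs. Lsm8 (ENSMUSG00000044155; chromosome 6, 18848579 to 18855751) stood at 53.6, 54.3 and 44.5 CPM with vehicle and 72.1, 56.1 and 62.1 CPM with NETs (log2 fold change 0.32, SE 0.12; edgeR adjusted p = 0.286). Lsm1 (ENSMUSG00000037296; chromosome 8, 25785288 to 25803975) stood at 19.4, 17.3 and 23.0 CPM with vehicle and 25, 22 and 23.3 CPM with NETs (log2 fold change 0.23, SE 0.14; edgeR adjusted p = 0.511). The groups were apart for Lsm8, by less than 2 CPM at their nearest, and overlapped for Lsm1. The log2 ratio of Lsm1 to Lsm8 in FPKM averaged −0.99 ± 0.36 with vehicle and −1.07 ± 0.09 with NETs (SD, n = 3 each; two-sided exact permutation p = 0.9, adjusted over 3 ratios 0.9). Vehicle replicate 3 was high at −0.59, and without it the difference changed sign, from −0.07 to 0.13.

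Lsm10 and Lsm11 replace SmD1 and SmD2 in the ring of the U7 particle, which directs the cleavage of histone pre-mRNAs. Lsm10 (ENSMUSG00000050188; chromosome 4, 126096623 to 126098584) stood at 12.7, 11.0 and 10.1 CPM with vehicle and 15.2, 12.5 and 14 CPM with NETs, and Lsm11 (ENSMUSG00000044847; chromosome 11, 45928269 to 45944935) at 30.4, 32.4 and 36.0 CPM with vehicle and 37.5, 34.6 and 34.0 CPM with NETs. Both pairs of groups overlapped, by a single vehicle library in each. The log2 fold changes were 0.30 for Lsm10 (SE 0.17; edgeR adjusted p = 0.477) and 0.10 for Lsm11 (SE 0.12; edgeR adjusted p = 0.736).

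The remaining LSm genes encode larger proteins outside the rings. Lsm12 stood at 46.8, 47.0 and 46.2 CPM with vehicle and 55.3, 53.7 and 50.1 CPM with NETs, without overlap (log2 fold change 0.18, SE 0.10; edgeR adjusted p = 0.448). Lsm14a and Lsm14b, which bind the helicase Ddx6 in processing bodies, the cytoplasmic granules that hold untranslated mRNAs, were at 0.03 (SE 0.08) and −0.04 (SE 0.10). The interval of Lsm14a (1.96 SE either side) ran from −0.12 to 0.18.

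Libraries within a group were not alike. NETs replicate 1 was the highest of the 6 libraries for 19 of the 33 genes, NETs replicate 2 for 9 and NETs replicate 3 for 2, while vehicle replicate 3 was highest for 2. Vehicle replicate 2 was lowest for 14 genes. The mean over the 33 genes of log2 CPM minus the vehicle mean was −0.00, −0.05 and 0.05 with vehicle, against 0.27, 0.18 and 0.17 with NETs, so that on this average the groups did not overlap. For the Sm ring the corresponding values were −0.03, −0.08 and 0.11 with vehicle and 0.43, 0.23 and 0.28 with NETs. Such averages also parted the groups for some splicing lists described below. The tri-snRNP list reached at most 0.09 with vehicle and at least 0.10 with NETs. For the hnRNP list these values were 0.05 and 0.10, and for the Prp19 list 0.03 and 0.04. In the other lists and over all genes tested the groups overlapped. Without NETs replicate 1, 8 of the 33 genes were higher at an unadjusted p under 0.05, against 3.03% of genes tested, and 0 passed an adjusted p of 0.05, against 0.00696%. Without vehicle replicate 3, 12 were higher at an unadjusted p under 0.05, against 11% of genes tested, and 5 passed an adjusted p of 0.05 by edgeR, against 2.81%: Lsm4, Snrpb, Snrpc, Snrpd2 and Snrpd3. Each library was also left out in turn, in fits that share most of their libraries. How many genes kept an unadjusted p under 0.05 was counted only for the genes described here, so no share over all genes stands beside it. Of their 11 genes at an unadjusted p under 0.05, 7 kept it in all 6 fits: Lsm4, Snrpc, Lsm6, Snrpd2, Snrpb, Snrpd3 and Snrpf. The other 4 were Sf3b1, Sf3a3, Lsm7 and Lsm8. Sf3b1 missed it without NETs replicate 1, Sf3a3 without NETs replicate 2, vehicle replicate 1 or vehicle replicate 2 (p up to 0.0803), Lsm7 without NETs replicate 1 or either of vehicle replicates 1 and 2 (p up to 0.0983), and Lsm8 without vehicle replicate 3 or NETs replicate 1 (p up to 0.105).

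Short genes as a whole were higher with NETs, and many of the genes described here are short. Among protein-coding genes tested, the median log2 fold change was 0.17 for the 285 genes under 1000 bases, 0.10 for 1262 genes of 1000 to 1999 bases, 0.05 for 3679 genes of 2000 to 3999 bases, 0.00 for 4569 genes of 4000 to 7999 bases and −0.06 for 2050 genes of 8000 bases or more. In the same bins the splicing genes had medians of 0.26 (4 genes), 0.36 (5 genes), 0.16 (16 genes), 0.22 (6 genes) and −0.08 (2 genes, Sf3b1 and Sf3b3). The median of the splicing genes was above that of their length class in the first 4 bins and below it in the last. A length trend was also removed, but it was fitted over all 13900 genes tested, coding or not. It is therefore not the trend of the bins above. With it removed, the median of the splicing genes was 0.14 in place of 0.17. Lsm4 then stood at 0.56, Snrpc at 0.42 and Sf3b1 at −0.19. Snrpf, at 861 bases, moved only from 0.51 to 0.49. Removal of the trend over protein-coding genes alone was not tested.

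**Figure D4:**
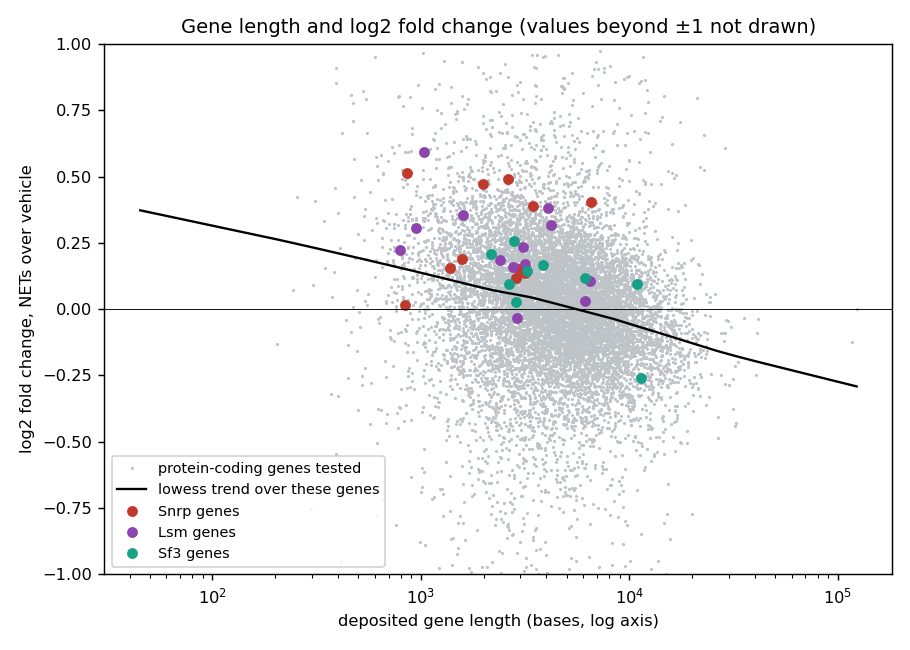
Log2 fold change (NETs over vehicle) against deposited gene length (log axis) for protein-coding genes tested (grey), within ±1, with a lowess trend (black line) and the Snrp, Lsm and Sf3 genes in colour. The trend falls with length, most coloured points lie above it, and Sf3b1, at 11370 bases, lies below it.

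The promoters of 27 of the 34 genes were found in the RefSeq table (GRCm38.p6; 250 bases before to 50 after the start); those of Lsm1, Lsm12, Lsm4, Sf3b4, Sf3b5, Snrpb and Snrpd1 were not matched. The search on both strands used the letters CCGGAA, only 1 form of the GGAA site bound by ETS factors. They were present for 13 of 27 genes (48.1%), against 32.1% of the 9913 tested genes in the table and 16.7% of all 27025. The E-box CACGTG, bound by Myc and related factors, was present for 1 of 27 (3.70%, Snrpa), against 11.7% of tested genes, and TATAAA for 3 of 27 (11.1%), against 8.38%. The 27 include Snrpn, which was not tested and has several promoters in the table. As these hold CCGGAA and TATAAA, Snrpn counts in the 13 and in the 3, which are set against tested genes. Of the 8 genes that were higher at an unadjusted p under 0.05 and had a promoter in the table, 3 held CCGGAA. Of the other 19 genes, Snrpn among them, 10 did. A match is a run of letters and not a bound site. The 250 bases before the start are shown for 3 of the genes that differed without overlap of the groups, Snrpd3 (chr10:75517792-75518041, plus strand) with 2 matches, Snrpc (chr17:27839837-27840086, plus strand) with 1 and Snrpd2 (chr7:19149588-19149837, plus strand) with none. These starts lie inside the genes as deposited. Capitals mark CCGGAA or its reverse complement. Runs of GGAA with other letters before them, as in the Snrpd2 and Snrpc sequences, were not counted or marked.
Snrpd3: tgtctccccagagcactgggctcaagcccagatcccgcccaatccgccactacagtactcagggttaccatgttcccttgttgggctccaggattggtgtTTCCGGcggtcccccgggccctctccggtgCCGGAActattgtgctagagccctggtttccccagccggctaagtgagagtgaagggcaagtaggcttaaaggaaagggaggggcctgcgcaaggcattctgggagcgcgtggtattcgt
Snrpc: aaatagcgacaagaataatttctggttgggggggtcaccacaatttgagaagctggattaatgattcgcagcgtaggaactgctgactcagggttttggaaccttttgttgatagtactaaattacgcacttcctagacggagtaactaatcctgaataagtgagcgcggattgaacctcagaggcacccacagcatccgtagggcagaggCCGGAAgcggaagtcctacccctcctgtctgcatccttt
Snrpd2: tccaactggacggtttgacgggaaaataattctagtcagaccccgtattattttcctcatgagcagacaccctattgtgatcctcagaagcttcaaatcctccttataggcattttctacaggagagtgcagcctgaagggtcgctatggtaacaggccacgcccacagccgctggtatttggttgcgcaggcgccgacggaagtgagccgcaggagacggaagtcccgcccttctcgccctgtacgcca

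Other splicing genes were set beside these, from lists of the remaining particles and factors. Their counts at an unadjusted p under 0.05 are to be read against the 6.72% higher and 6.06% lower of all genes tested. Proteins of the U4/U6.U5 tri-snRNP, which joins the assembled U1 and U2 particles, had a median of 0.15 over 18 genes, 16 above 0. Of them 5 were higher at an unadjusted p under 0.05, and 0 lower. Snrnp40, a U5 protein, was at 0.40 (SE 0.11; edgeR adjusted p = 0.223), and Eftud2, the U5 GTPase, at 0.36 (SE 0.10; edgeR adjusted p = 0.223), both without overlap. The other U1, U2 and minor spliceosome proteins went both ways, with 5 of 24 higher and 5 lower at an unadjusted p under 0.05 and a median of 0.02. Luc7l3, a U1-associated protein, was at −0.38 (SE 0.09; edgeR adjusted p = 0.223) and Snrnp48, of the minor spliceosome, at −0.35 (SE 0.11; edgeR adjusted p = 0.238), both with NETs libraries wholly below.

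The Prp19 complex and step factors, which act in the catalytic spliceosome, had 7 of 32 higher, 0 lower and a median of 0.04, with Ppil1 at 0.37 (SE 0.09) and Snw1 at 0.26 (SE 0.09). Genes for the assembly and import of snRNPs, among them the SMN complex that loads Sm rings onto RNA, had 2 of 19 tested higher (10.5%, against 6.72% of all genes tested), 0 lower and a median of 0.13. These were Strap at 0.31 (SE 0.11) and Gemin7 at 0.40 (SE 0.15), each with overlapping groups. Smn1 itself was at 0.05 (SE 0.15). The SR proteins, which bind exonic enhancers, had 2 of 16 higher (12.5%), 1 lower and a median of −0.01. Srrm2, a large scaffold of nuclear speckles, was at −0.32 (SE 0.09) and Srsf9 at 0.46 (SE 0.15).

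Among the hnRNP proteins, which coat nascent RNA, 7 of 25 were higher, 0 lower and the median was 0.10, with Hnrnpab at 0.50 (SE 0.14) and Pcbp1 at 0.29 (SE 0.09). The partners of the cytoplasmic LSm ring in decapping and decay had 1 of 10 higher (Dcps, 0.22, SE 0.10), 1 lower (Pnrc1, −0.20, SE 0.09) and a median of 0.03, shares near the 6.72% and 6.06% of all genes tested. The partners of U7 in histone mRNA processing had 1 of 13 higher (7.69%, also near the share over all genes; Cpsf4, 0.22, SE 0.10), 0 lower and a median of 0.06. No gene of these lists passed an adjusted p of 0.05 by edgeR. The differences between the lists and the Sm, LSm and SF3 genes were not tested.

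**Figure D5:**
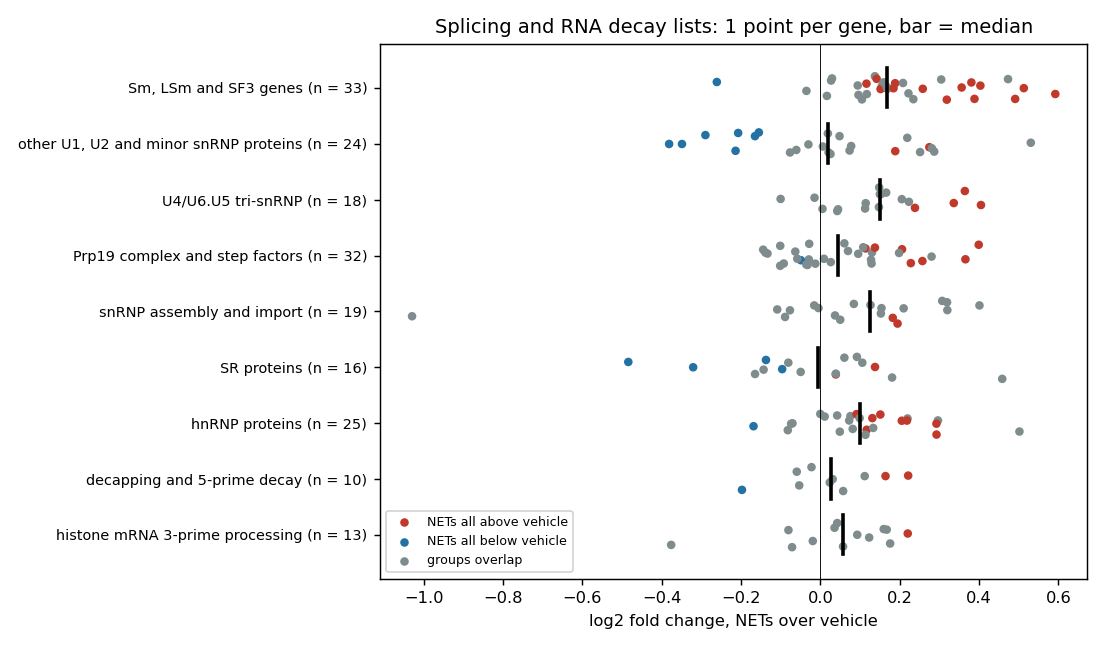
Log2 fold change (NETs over vehicle, horizontal axis) of each tested gene of the Sm, LSm and SF3 set and of 8 other lists; points are genes, coloured by whether the groups overlap, and black bars are list medians. The Sm, LSm and SF3 median of 0.17 is the rightmost, followed by that of the tri-snRNP at 0.15. Blue points (NETs libraries wholly below) number 7 of 24 in the other U1, U2 and minor snRNP list and 4 of 16 in the SR proteins. Over all genes tested the share wholly below was 7.86%.

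Markers of other cells were compared between the groups. Summed over 10 neutrophil markers the level was 1.73 to 2.77 CPM with vehicle and 3.97 to 5.25 CPM with NETs, with Ly6g at 0 in every library and S100a9 at 0 in the vehicle libraries only. Summed over 11 T cell markers it was 5592 to 6207 CPM with vehicle and 5659 to 6013 CPM with NETs. For 7 B cell markers the sums were 419 to 490 CPM and 400 to 431 CPM, of which Ighm made up at least 380 CPM. For 10 macrophage and dendritic cell markers they were 32.6 to 45.5 CPM and 42.9 to 58.4 CPM, for 7 CD8 T and NK cell markers 31.5 to 32.5 CPM and 22.4 to 28.5 CPM, and for 6 red blood cell markers 0.952 to 1.3 CPM and 0.993 to 2.65 CPM. The neutrophil and the CD8 T and NK sums did not overlap between groups, and their part in the differences of the splicing genes was not tested. Taken singly, none of the CD8 T and NK markers separated the groups. Of the neutrophil markers only S100a8 and S100a9 did, both higher with NETs, while others such as Mpo and Ltf overlapped.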

How the data were processed

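RNA sequencing counts of 6 libraries, 3 with NETs and 3 with vehicle, were grouped by their treatment labels. Per the file headers, the authors deposited raw read counts (whole numbers) and, in a separate table, FPKM values of each gene. Per the submitters' processing notes, STAR and DESeq2 were used (no versions), with the build mm9. Counting program, annotation and strand use were not given in the sources used here. Hence reads of overlapping genes cannot be told apart. Of 54409 genes shared with the GRCm38 annotation, 98.3% had identical coordinates (32 of the 34 described), so coordinates are read as GRCm38.

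Genes kept by filterByExpr were scaled by TMM and tested with edgeR 4.0.16 (quasi-likelihood, robust, two-sided, group only) in R 4.3.3, with Benjamini-Hochberg adjustment over all 13900 genes and a threshold of 0.05. The median SE of a log2 fold change was 0.10 for the genes described and 0.15 for all. Alternatives used DESeq2 1.42.0, limma 3.58.1, other scaling and filters, a replicate block and each library left out. Length and GC trends were also removed (lowess over the genes tested, coding or not). The members, lists and tests were chosen with earlier results of these data known. Shown in full were the 12 genes with the smallest p, plus Snrpb, Snrpn, Lsm1, Lsm8, Sf3b1, Lsm10 and Lsm11, and of other lists the 2 with the smallest p. Protein sequences were not used here.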

Additional observations from a re-analysis of the deposited data

How the results depend on the processing

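The median log2 fold change of the 33 genes kept its sign under each alternative, from 0.14 (length trend removed, with or without the block, or without vehicle replicate 2) to 0.21 (GC content trend removed, or without NETs replicate 3); the GC and protein-coding fits were added after seeing the data. The count higher at an unadjusted p under 0.05 ran from 8 to 12 with a library left out, against 3.03% to 11% of genes tested. Otherwise it was 10 or 11, against 5.14% to 7.33% of genes tested. The count with NETs libraries wholly above ran from 16 to 20 with a library left out (fewer libraries to overlap) and was 14 or 15 otherwise. For that count the share over all genes was taken only in the main fit, where it was 8.72%. The count lower was 0 to 1. Calls over all genes depended on the processing: 322 with no filter on low counts (1.3% of genes tested, with 6 of the 33: Lsm4, Snrpb, Snrpc, Snrpd2, Snrpd3 and Snrpf), 130 with DESeq2, 1 with limma-voom, and 0 to 405 with a library left out. The 405 were without vehicle replicate 3 (2.81%, with 5 of the 33: Lsm4, Snrpb, Snrpc, Snrpd2 and Snrpd3); the cause was not tested. The 15 named genes tested kept their direction in all 270 values under another setting, of which 18 passed the threshold. Of these 15, 12 were named for the smallest p in these data, so their steady sign says little. The values with a length or GC trend removed carry no test. With a library left out, Snrpd1 ran from −0.05 to 0.07 and Sf3b6 from −0.02 to 0.07, so the count above 0 can change.

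The deviations of same-numbered libraries from their group means had correlations of −0.02, −0.05 and −0.17. For libraries of different numbers they ran from −0.17 to 0.21. With 3 libraries a group, such values cannot settle whether the numbers are pairs, and the labels state no pairing. With a replicate block, 10 genes were higher at an unadjusted p under 0.05, against 5.14% of genes tested, and the median was 0.17. Over all genes 0 passed edgeR's adjusted p of 0.05, with 1337 at an unadjusted p under 0.05. The ratio of Lsm1 to Lsm8 changed from −0.07 to 0.13 without vehicle replicate 3 (range with a library left out −0.22 to 0.13), and that of Snrpb2 to Snrpa from −0.04 to 0.036 without NETs replicate 1 (range −0.10 to 0.036); that of Snrpn to Snrpb ranged from −2.35 to −0.92, and was −0.72 with a pseudocount of 1 FPKM. The median level with vehicle was 52.4 FPKM, and 21.5 per kilobase of deposited gene length, which is longer. Too few reads kept Snrpn out of the test, and with 3 libraries a group and a median SE of 0.10, differences such as that of Snrpd1 were not detectable.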

Other observations

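All 3 Luc7-like genes, which encode U1-associated proteins that help choose the 5′ splice site, had NETs libraries wholly below the vehicle libraries, as did 7.86% of all genes tested; Luc7l did not reach an unadjusted p under 0.05. The log2 fold changes were −0.38 for Luc7l3 (SE 0.09), −0.21 for Luc7l2 (SE 0.08; edgeR adjusted p = 0.324) and −0.16 for Luc7l (SE 0.09; edgeR adjusted p = 0.437). Prpf39, another U1-associated protein, was at −0.29 (SE 0.09; edgeR adjusted p = 0.249), also with the NETs libraries wholly below. The U1 core protein Snrnp70 was at 0.02 (SE 0.10) with overlapping groups, and Snrpc, described above, at 0.40. The 2 subunits of U2AF, which bind the 3′ splice site, were at 0.27 (U2af2, SE 0.09; edgeR adjusted p = 0.251) and 0.19 (U2af1, SE 0.09; edgeR adjusted p = 0.383), both with NETs libraries wholly above. These genes, apart from Luc7l3 and Snrpc, were singled out after their values were seen, and none passed an adjusted p of 0.05 by edgeR.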
